A study of Microcebus murinus with 18 samples.

Results

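Genes that mark astrocytes were followed through the temporal cortex of the grey mouse lemur, Microcebus murinus, a small primate that is used as a model of brain aging. The list held 40 genes known for astrocyte structure, transport, metabolism and reactivity, given by symbol. They were listed with earlier results of these data known. On the human HG-U133 Plus 2.0 array, where 19775 gene symbols have a probe set annotated to them alone, 39 of the 40 had at least one, which gave 104 probe sets of the 54613 that are not array controls. HEPACAM, a cell adhesion protein of the astrocyte endfoot, was represented only by a probe set that it shares with HEPN1, and a probe set shared by ID2 and ID2B was likewise left aside. A probe set is a group of short probes for 1 transcript, and its signal has no meaning against that of another probe set. Differences between groups were therefore taken within the same probe set, and sums or ranks over probe sets serve only as rough guides.

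The tissue came from 2 AD-like animals, both old females, from 10 old animals of which 7 were female and 3 male and that lacked such signs, and from 6 young adults, of which 4 were female and 2 male. AD-like stands for old lemurs in whose brains the study had found amyloid plaques and a thinner cortex, a spontaneous condition of the aged colony animal and not a transgene. Each animal gave 1 array, and the RNA was total RNA of the whole tissue piece. In such tissue, fewer astrocytes and less RNA per astrocyte cannot be told apart. Because lemur RNA was bound to human probes, a low signal can stand for little transcript or for a poor match, and these cannot be told apart either.

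Astrocytes are the glial cells that surround synapses and blood vessels. They take up glutamate through the transporters encoded by SLC1A2 and SLC1A3 and turn it into glutamine with the enzyme encoded by GLUL. They carry water and potassium through the channels encoded by AQP4 and KCNJ10, and they are coupled to each other by gap junctions. In injured, aged and plaque-bearing brain, astrocytes of many species become reactive, a state known for more of the intermediate filaments GFAP and vimentin and for secreted proteins such as the product of SERPINA3.

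Of the 104 probe sets, 45 passed the limit on low signals, a third-highest signal of at least 150 over the 18 arrays whatever the group. They represented 26 genes, 12 of them by more than 1 probe set, and the other 59 probe sets, and with them 13 genes, stayed below it. Just under the limit lay CHI3L1 209396_s_at, NDRG2 214278_s_at and CD44 209835_x_at, with third-highest signals of 130.7, 131.3 and 145.8. Just above it lay ALDH1L1 215798_at, SOX2 214178_s_at and AQP4 210906_x_at, with 150.8, 153 and 155.2. All signals had been scaled to a trimmed mean of 100 on each array, and differences are given on the scale of log2(signal + 16), which understates the change of dim probe sets.

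The arrays differed in ways that the groups do not explain. The poly-A control RNA was missing on 4 arrays (AD-like F2, old M1, old M2 and young adult M2). The GAPDH ratio, taken as log2 of the 3' over the 5' probe set, which is higher where RNA is shortened, averaged 0.47 ± 0.20 in AD-like (SD, n = 2), 0.59 ± 0.53 in old (SD, n = 10) and 0.31 ± 0.20 in young adult animals (SD, n = 6). Old and young adult animals differed in it by 0.28 (p = 0.235 in a two-sided exact permutation test). This was less than the SD of the old animals but more than that of the young adults. Old F4 and old F6 had the highest ratios, 1.56 and 1.22. Markers of other cells were measured beside the astrocyte genes, each gene by its brightest kept probe set. None of these probe sets reached an unadjusted p of 0.05 between groups in limma, a test of 1 linear model for each probe set. Other kept probe sets of these markers were not examined. All 10 neuron markers and 7 of 8 oligodendrocyte markers had a kept probe set, but only 1 of 9 microglia markers did, so microglia could hardly be followed. The summed signal of the 26 astrocyte genes was 23248 and 25858 in the AD-like animals, 16307 to 52837 in old and 16447 to 49602 in young adult animals, and the groups overlapped. A few bright probe sets, such as those of GLUL and SLC1A2, carry most of this sum, so it does not weigh the genes equally.

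Several of the best-known astrocyte markers did not pass the limit. GFAP, the main intermediate filament of astrocytes, had 3 probe sets and none was kept. The GFAP probe set 203540_at gave 54.4 in AD-like F1 and 26.4 in AD-like F2, 6.85 to 80.7 (median 55.9) in old and 9.03 to 127.4 (median 77.9) in young adult animals, and 229259_at gave 68.5 and 23.4, 11.5 to 138 (median 71.7) and 12.4 to 99.1 (median 48.6) in the same groups. The groups overlapped in both, and the signals lay above the median of their array on 12 and 11 of the 18 arrays. The third GFAP probe set, 203539_s_at, lay above the array median on 1 of the 18 arrays. S100B, a calcium-binding protein that astrocytes secrete, had 2 probe sets that lay above the array median on 0 of the 18 arrays, with a highest signal of 32.2. SERPINA3, a protease inhibitor of reactive astrocytes, had signals of 24.7 in AD-like F1 and 8.13 in AD-like F2, 19.3 to 89.3 (median 39.1) in old and 19.4 to 58.0 (median 27.4) in young adult animals. LCN2, an iron-siderophore binding protein of reactive astrocytes, had 94.1 and 30.6 in the AD-like, 14.6 to 57.1 in old and 12.2 to 95.1 in young adult animals. None of these 4 genes therefore entered the main comparisons.

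The other genes without a kept probe set were GJB6, a gap junction protein, MLC1, a membrane protein of the endfoot, ATP13A4, a transport ATPase, ALDH1A1, a retinaldehyde dehydrogenase, ACSBG1, an acyl-CoA synthetase, GPC5, a glypican, ID3, an inhibitor of DNA binding, NTSR2, a neurotensin receptor, and BMPR1B, a receptor of bone morphogenetic proteins. GJB6 did not exceed 19.2 and NTSR2 did not exceed 32.5 in any animal. Single signals of BMPR1B 210523_at and ALDH1A1 reached 170.7 and 172.5, both in young adults. These genes are not in the counts of kept probe sets.

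Between the groups, the astrocyte genes differed about as often as any probe set on the array, and none passed the adjusted test. Between AD-like and old animals, 1 of the 45 probe sets had an unadjusted p under 0.05 in limma, against 4.84% of all 14567 kept probe sets, and it was lower in the AD-like animals, where 3.62% of all kept were lower and 1.22% higher. Between old and young adult animals it was 3 of 45, with 1 higher and 2 lower in old, against 5.91% of all kept (3.49% higher and 2.42% lower). Between AD-like and young adult animals it was 2 of 45, both lower in AD-like, against 4.34% of all kept, with 3.21% lower and 1.13% higher. After Benjamini-Hochberg adjustment over all kept probe sets, 0 of 45 passed in each comparison, against 0.00686% of all kept for AD-like against old and 0% for the others, and the lowest adjusted p of a member was 0.706, 0.836 and 0.9995. The methods' t-test on linear signals gave 3, 2 and 1 of 45 at an unadjusted p under 0.05 and 0 after adjustment. The shares of all kept probe sets under that test are not given here, so its counts say nothing about the members as a set.

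The directions were mixed as well. The median log2 difference over the 45 probe sets was 0.08 for AD-like against old animals, beside −0.02 over all kept probe sets, and 24 of 45 were above 0, beside 48.1%. For old against young adult animals the median was 0.00 beside 0.03, and 23 of 45 were above 0, beside 53.9%. For AD-like against young adult animals it was −0.06 beside 0.01, and 22 of 45 were above 0, beside 51.3%. With 1 probe set for each gene, the brightest, 16 of the 26 genes were above 0 in AD-like against old animals and 14 of 26 in old against young adult animals. These comparisons share animals, so their values are given side by side and not set against each other. The 95% intervals were wide for the AD-like animals, with a median reach of 1.12 to either side for the 26 genes, and 2 of the 26 lay wholly within a log2 of 1 of no difference. For old against young adult animals the median reach was 0.745, and 16 of 26 lay within that range.

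**Figure D1:**
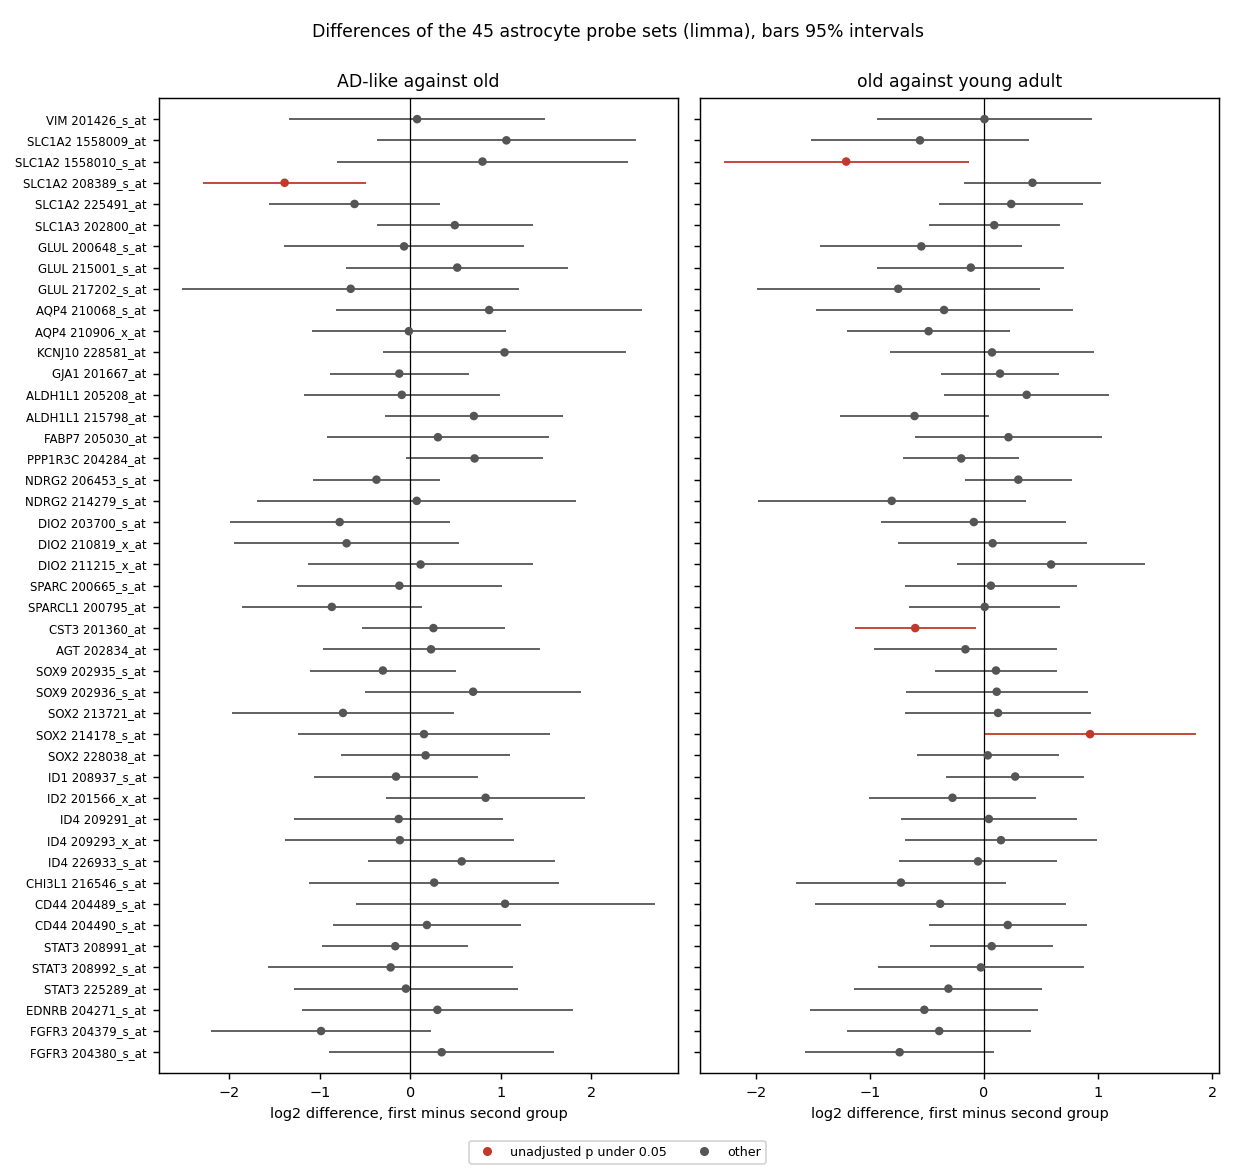
Log2 differences of the 45 kept astrocyte probe sets in limma (horizontal axis, first minus second group) for AD-like against old animals (left) and old against young adult animals (right). Points are estimates, bars are 95% intervals, and red marks an unadjusted p under 0.05, reached by 1 probe set on the left and 3 on the right.

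Among the structural genes, VIM, which encodes the intermediate filament vimentin, was the only one with a kept probe set, 201426_s_at. Its signals were 2711 in AD-like F1 and 2347 in AD-like F2, 359.7 to 5106 (median 3340) in old and 1286 to 3910 (median 2421) in young adult animals. Both AD-like animals lay inside the range of the old ones, with 6 old animals above and 4 below them. The log2 difference was 0.08 for AD-like against old animals (95% interval −1.34 to 1.49, p = 0.911 in limma) and 0.00 for old against young adult animals (−0.94 to 0.95, p = 0.992).

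**Figure D2:**
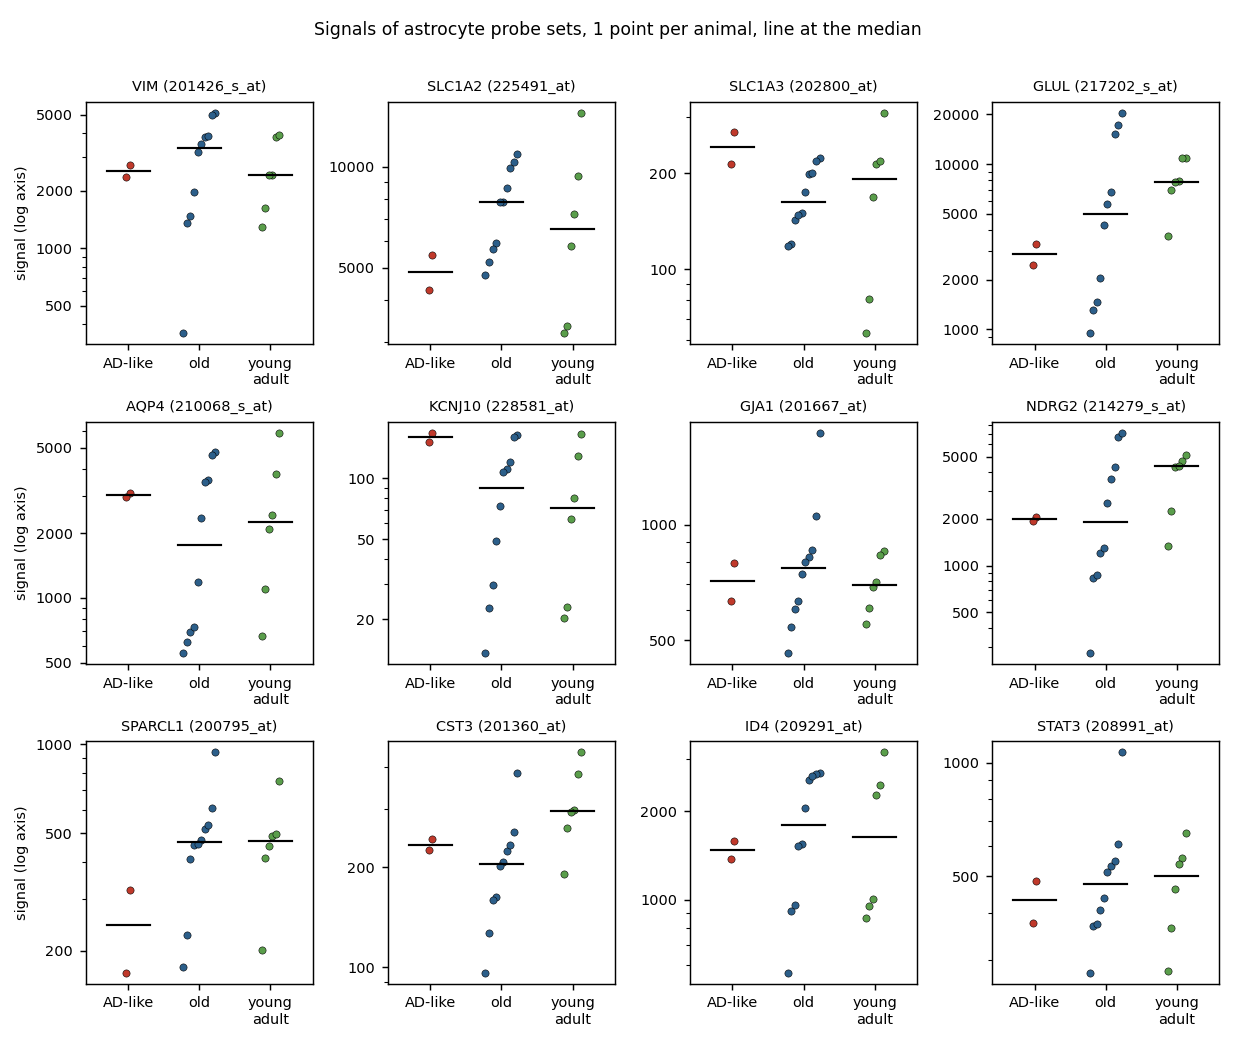
Signals of 12 astrocyte probe sets on logarithmic axes in AD-like, old and young adult animals, with 1 point for each animal and a line at the group median. The groups overlap in every panel except for GLUL, where both AD-like animals lie below all young adults but inside the range of the old ones.

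In the genes of glutamate uptake and glutamine synthesis, SLC1A2, which encodes the main glutamate transporter of astrocytes, gave 3 of the 6 differences at an unadjusted p under 0.05 over the 3 comparisons. The SLC1A2 probe set 208389_s_at had signals of 134.5 in AD-like F1 and 100.9 in AD-like F2, 174.6 to 499.9 (median 366.4) in old and 114.8 to 437.6 (median 233.9) in young adult animals. Both AD-like animals lay below all 10 old animals. Among the 45 kept members, 1 was thus without overlap in this comparison, beside 3.02% of all kept probe sets, and 0 of 45 were so between old and young adult animals, beside 0.0343%. The log2 difference was −1.39 against old animals (SE 0.43, 95% interval −2.29 to −0.49, p = 0.00417, adjusted p = 0.706 in limma) and −0.96 against young adult animals (SE 0.45, p = 0.0463). Without AD-like F2 the difference from old animals was −1.21, with a p of 0.0562.

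The other SLC1A2 probe sets did not show the same picture. The brightest, 225491_at, had 5445 and 4294 in the AD-like animals, 4776 to 10900 (median 7839) in old and 3194 to 14500 (median 6524) in young adult animals, and 8 old animals lay above both AD-like animals. Its log2 difference was −0.61 for AD-like against old animals (95% interval −1.56 to 0.33). In 1558010_s_at the AD-like signals were 638.3 and 549.9, those of old animals 22.6 to 876.1 (median 447.2) and those of young adults 402.6 to 1410 (median 950.2). All 10 old animals lay below the median of the young adults but 6 of them inside their range, with a log2 difference of −1.21 for old against young adult animals (SE 0.52, 95% interval −2.28 to −0.13, p = 0.0293, adjusted p = 0.836 in limma). With the GAPDH ratio as a covariate this became −0.69, with a p of 0.109. In the same comparison 208389_s_at and 225491_at leaned the other way, with log2 differences of 0.42 (−0.17 to 1.02) and 0.24 (−0.39 to 0.87). The fourth, 1558009_at, had 67.9 and 239.9 in the AD-like, 2.45 to 191.4 in old and 12.7 to 262 in young adult animals, and its log2 difference was 1.06 for AD-like against old animals (−0.37 to 2.50).

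**Figure D3:**
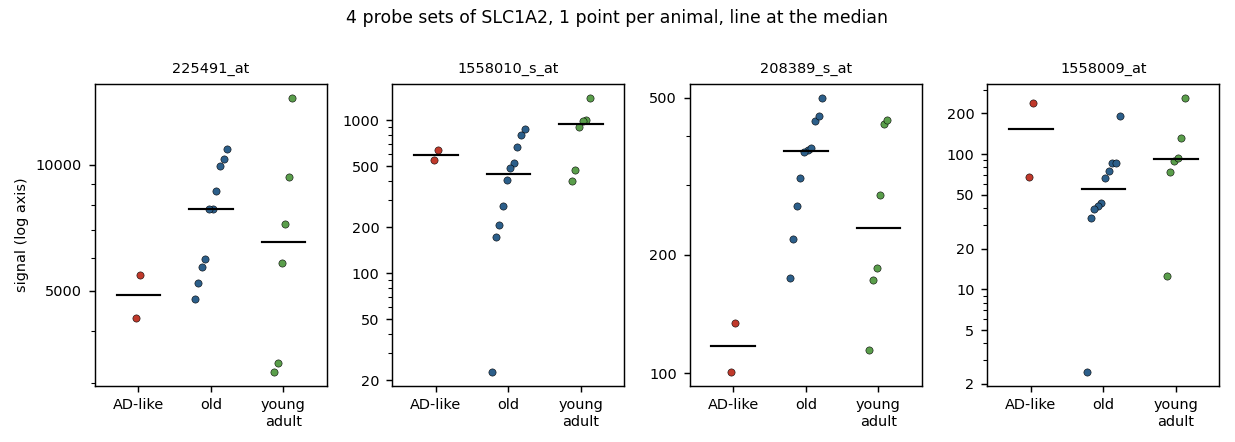
Signals of the 4 kept probe sets of SLC1A2 on logarithmic axes in AD-like, old and young adult animals, with 1 point for each animal and a line at the group median. In 208389_s_at both AD-like animals lie below all 10 old animals, in 225491_at they overlap with them, and in the other 2 probe sets they lie above the median of the old animals.

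SLC1A3, the second glutamate transporter of astrocytes, had signals of 214.4 in AD-like F1 and 268.4 in AD-like F2, 118.3 to 223.6 (median 162.7) in old and 63.3 to 309.2 (median 191.4) in young adult animals. Its log2 difference was 0.49 for AD-like against old animals (95% interval −0.37 to 1.35) and 0.09 for old against young adult animals (−0.48 to 0.66). GLUL, which encodes glutamine synthetase, was the member with the largest spread between animals. The GLUL probe set 217202_s_at had 3289 and 2466 in the AD-like animals, 951 to 20450 (median 4987) in old and 3689 to 10950 (median 7848) in young adult animals. Both AD-like animals lay below all 6 young adults, as 1 of the 45 members without overlap in this comparison, beside 5.59% of all kept, and the log2 difference was −1.41 (95% interval −3.37 to 0.55, p = 0.15 in limma). Against old animals it was −0.66 (−2.52 to 1.2), and old against young adult animals gave −0.75 (−1.99 to 0.49). A second GLUL probe set, 200648_s_at, followed the first across animals (r = 0.86), and the third, 215001_s_at, did not (r = −0.37).

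In the group of water, potassium and gap junction genes no kept probe set reached an unadjusted p of 0.05. AQP4, the water channel of the endfoot, had signals of 3071 in AD-like F1 and 2959 in AD-like F2 on 210068_s_at, 555.2 to 4808 (median 1771) in old and 667.8 to 5888 (median 2263) in young adult animals. Old animals spread on both sides of the AD-like ones, with 4 above and 6 below, and the log2 difference was 0.87 (95% interval −0.82 to 2.56). The dimmer AQP4 probe set 210906_x_at gave −0.01 (−1.09 to 1.06) in the same comparison. KCNJ10, the inward rectifier potassium channel of astrocytes, had 151.0 and 168.7 in the AD-like animals, 13.6 to 163.3 (median 90.1) in old and 20.4 to 166.4 (median 71.7) in young adult animals. AD-like F2 lay above all old and young adult animals and AD-like F1 above 8 of the 10 old ones, with a log2 difference of 1.04 against old animals (−0.30 to 2.39, p = 0.121 in limma). GJA1, the gap junction protein connexin 43, had 794.2 and 632 in the AD-like, 463.4 to 1740 (median 770.4) in old and 550.8 to 854.3 (median 697.9) in young adult animals. Its log2 difference was −0.12 for AD-like against old (−0.89 to 0.65) and 0.14 for old against young adult animals (−0.37 to 0.65), intervals that lay within a log2 of 1 of no difference in both.

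The metabolic genes held no kept probe set with an unadjusted p under 0.05. NDRG2, a growth-regulated protein that is abundant in astrocytes, was measured by 2 kept probe sets. On 214279_s_at it had 2049 and 1941 in the AD-like animals, 275.1 to 7134 (median 1911) in old and 1336 to 5153 (median 4349) in young adult animals, and 5 old animals lay below all young adults while 2 lay above them all. The log2 difference was −0.81 for old against young adult animals (95% interval −1.99 to 0.37) and 0.07 for AD-like against old animals (−1.69 to 1.84). The other NDRG2 probe set, 206453_s_at, had the smallest spread within groups of all 45, a standard deviation of 0.377 on the log2 scale, and gave 0.30 (−0.17 to 0.77) and −0.37 (−1.08 to 0.33) in these comparisons. PPP1R3C, a glycogen-targeting subunit of protein phosphatase 1, had 423.2 and 653.0 in the AD-like animals, 200.1 to 495.3 (median 326.1) in old and 236.9 to 595.5 (median 360.9) in young adult animals. Both AD-like animals lay above the median of the old ones, 8 of which lay below both, with a log2 difference of 0.71 (−0.05 to 1.47, p = 0.065 in limma). With females only it was 0.84, with a p of 0.0197, and 6 of 29 alternatives gave a p under 0.05. With females only, a larger share of all kept probe sets had a p under 0.05 than in the main setting. This p therefore does not single out PPP1R3C, and SOX2 213721_at had a p under 0.05 in the same fit.

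The other metabolic genes overlapped between groups. ALDH1L1, a folate enzyme specific to astrocytes, had signals of 22.4 to 176.2 over both of its probe sets in old animals, and these gave log2 differences of −0.61 (215798_at) and 0.37 (205208_at) for old against young adult animals. FABP7, a fatty acid binding protein of radial glia and astrocytes, ranged between 64.7 and 430.8 over all animals on 205030_at, with a log2 difference of 0.31 for AD-like against old animals (95% interval −0.92 to 1.54). DIO2, the deiodinase with which astrocytes make active thyroid hormone, had 3 kept probe sets with log2 differences of −0.78, −0.70 and 0.12 for AD-like against old animals.

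Among the secreted genes, CST3, the protease inhibitor cystatin C, was lower in the old animals than in the young adults before adjustment. Its signals on 201360_at were 225.1 and 242.3 in the AD-like animals, 96.2 to 383.5 (median 204.6) in old and 191.3 to 443 (median 295) in young adult animals. Of the 10 old animals 9 lay below the median of the young adults and 4 below all of them, with a log2 difference of −0.60 (SE 0.25, 95% interval −1.13 to −0.07, p = 0.0273, adjusted p = 0.836 in limma). With females only the difference was −0.51, with a p of 0.132, and with the GAPDH ratio as a covariate −0.50, with a p of 0.0703. SPARCL1, a matrix protein that promotes synapse formation in mice, had 168.5 and 322.2 in the AD-like animals, 176.8 to 939.5 (median 467.4) in old and 201.7 to 750.6 (median 471.3) in young adult animals. Both AD-like animals lay below the median of the old ones, 8 of which lay above both, with a log2 difference of −0.87 (−1.86 to 0.13, p = 0.084 in limma). With females only it was −0.88, with a p of 0.0464, and 3 of 29 alternatives gave a p under 0.05. The share of all kept probe sets with a p under 0.05 was also larger with females only than in the main setting. SPARC, a related matrix protein, had 291.2 and 49.1 in the AD-like animals, and AGT, the precursor of angiotensins, had 99.5 and 122.6. Their log2 differences against old animals were −0.12 (−1.25 to 1.01) and 0.23 (−0.97 to 1.43).

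The transcription factors SOX9 and SOX2 and the ID proteins, which block other helix-loop-helix factors, gave 1 kept probe set with an unadjusted p under 0.05. SOX2 214178_s_at had 73.0 and 162.8 in the AD-like animals, 8.21 to 191.7 (median 111.2) in old and 8.41 to 153 (median 48.8) in young adult animals. Of the 10 old animals 9 lay above the median of the young adults but 1 above all of them, with a log2 difference of 0.93 (SE 0.45, 95% interval 0.0029 to 1.86, p = 0.0494, adjusted p = 0.836 in limma). The 2 brighter SOX2 probe sets, 228038_at and 213721_at, gave 0.03 (−0.59 to 0.66) and 0.12 (−0.69 to 0.94) in the same comparison. Without young adult F3 the difference of 214178_s_at was 0.68, with a p of 0.152, and its p was above 0.05 under most alternatives.

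ID4 was measured by 3 kept probe sets. On the brightest, 209291_at, its signals were 1371 in AD-like F1 and 1584 in AD-like F2, 566.2 to 2689 (median 1799) in old and 866.8 to 3159 (median 1632) in young adult animals, and both AD-like animals lay inside the range of each other group. The log2 difference was −0.13 for AD-like against old animals (95% interval −1.29 to 1.03) and 0.04 for old against young adult animals (−0.73 to 0.81). ID2 (201566_x_at) had 576.2 and 497.6 in the AD-like animals and 59.0 to 623.9 (median 319.7) in old animals, with a log2 difference of 0.83 (−0.27 to 1.94). ID1 and SOX9 gave −0.16 and −0.30 in that comparison, SOX9 on 202935_s_at, and its other probe set, 202936_s_at, gave 0.70 (−0.50 to 1.89).

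Of the reactive genes, CD44, STAT3 and CHI3L1 had kept probe sets, and none reached an unadjusted p of 0.05. CD44, the hyaluronan receptor, had 11 further probe sets below the limit. On 204490_s_at its signals were 167.5 in AD-like F1 and 70.8 in AD-like F2, 30.95 to 156.7 (median 120.1) in old and 23.6 to 168.1 (median 90.1) in young adult animals, with a log2 difference of 0.18 for AD-like against old animals (95% interval −0.85 to 1.22). On 204489_s_at the AD-like animals stood apart from each other, at 36.2 and 247.5, with old animals at 7.42 to 229.5 (median 27.5) and young adults at 9.80 to 174.1 (median 58.4). CHI3L1, the secreted protein YKL-40 that is measured in human cerebrospinal fluid as an astrocyte marker, had 14.4 and 141.5 in the AD-like animals, 14.2 to 157.8 (median 34.2) in old and 27.9 to 159.5 (median 70.5) in young adult animals. STAT3, the transcription factor downstream of cytokine receptors, had 486.9 and 375.5 in the AD-like animals, 277.2 to 1065 (median 475.2) in old and 280.8 to 652.1 (median 499.8) in young adult animals on 208991_at. Its log2 difference was −0.16 for AD-like against old (−0.97 to 0.64) and 0.07 for old against young adult animals (−0.47 to 0.60), and the groups overlapped.

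The receptors with kept probe sets were EDNRB, the endothelin B receptor, and FGFR3, a fibroblast growth factor receptor of astrocytes. FGFR3 204379_s_at had a log2 difference of −1.38 for AD-like against young adult animals (SE 0.61, 95% interval −2.66 to −0.10, p = 0.0361, adjusted p = 0.9995 in limma). This rested on 1 animal, since its signals were 246.3 in AD-like F1 and 11.0 in AD-like F2, against 73.6 to 253.4 (median 149.6) in old and 111.3 to 334.5 (median 220.9) in young adult animals. Without AD-like F2, whose array had no poly-A control RNA, the difference was 0.26. EDNRB had 564.8 and 331.6 in the AD-like animals, 101.8 to 1089 (median 327.7) in old and 222.4 to 959.9 (median 656.4) in young adult animals, and the groups overlapped. Its log2 difference was 0.30 for AD-like against old (−1.20 to 1.80) and −0.52 for old against young adult animals (−1.52 to 0.48).

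The signals of the dim probe sets were fitted as well, with no limit on low signals, and gave 5 of 104 probe sets at an unadjusted p under 0.05 for AD-like against old animals (5.74% of all 54613), 5 of 104 for old against young adult (5.36%) and 4 of 104 for AD-like against young adult (4.93%). No member passed the adjusted test, and neither did any other probe set. Groups without overlap were seen for 2 of 104 in AD-like against old animals (3.39% of all), 0 of 104 in old against young adult (0.0275%) and 3 of 104 in AD-like against young adult (6.12%). KCNJ10 206692_at was among the last 3. It had 102.8 in AD-like F1 and 91.8 in AD-like F2, 13.3 to 97.6 (median 52.6) in old and 9.96 to 74.8 (median 53.0) in young adult animals. ID4 209292_at had 173.4 and 105.7 in the AD-like animals and 49.7 to 89.7 in old animals, without overlap, and a log2 difference of 0.91 (p = 0.0287 in limma), while its 3 brighter probe sets gave −0.13 (209291_at), −0.11 (209293_x_at) and 0.57 (226933_s_at). ID3 had 70.6 and 116.0 in the AD-like animals, against 10.3 to 87.9 (median 30.9) in old and 9.84 to 143.9 (median 16.5) in young adult animals, with log2 differences of 1.13 against old and 1.36 against young adult animals. CHI3L1 209396_s_at had 19.7 and 28.5 in the AD-like animals, against 28.1 to 159.6 (median 70.7) in old animals, a log2 difference of −1.19 (p = 0.0249). GLUL 242281_at gave −1.13 for old against young adult animals (p = 0.00346), with all 10 old animals below the median of the young adults, and ATP13A4 1559571_a_at gave −0.95 (p = 0.0211). FABP7 205029_s_at gave 0.99 for AD-like against old animals (p = 0.0473) and CD44 212014_x_at gave 0.92 for AD-like against young adult animals (p = 0.0435). All of these probe sets lay below the limit on low signals.

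The astrocyte probe sets varied widely between animals of the same group. Their standard deviation within groups on the log2 scale had a median of 0.812 over the 45 probe sets, beside 0.616 over all kept probe sets, and 34 of the 45 lay above 0.616. This was not tested, and probe sets of 1 gene are not independent. The most variable were GLUL 217202_s_at (1.31), NDRG2 214279_s_at (1.24) and AQP4 210068_s_at (1.18). Among the old animals alone, the highest GLUL signal was 21.5 times the lowest, that of NDRG2 25.9 times and that of AQP4 8.66 times.

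These genes also varied together. Over all 325 pairs of the 26 genes, each by its brightest probe set, the median Pearson correlation across the 18 animals was −0.02, beside 0.005 over all pairs of kept probe sets, so the list as a whole did not move as 1 block. However, 13 pairs had an r above 0.7, which is 4% of the pairs beside 1.02% over all kept probe sets, and none had an r below −0.7. These shares are not alike, since the first uses the brightest probe set of each gene and the second every kept probe set. The 13 pairs also share genes and are not separate instances. The p-values of these pairs are given without adjustment, and 325 pairs were computed. GLUL and NDRG2 had r = 0.92 and rho = 0.93 (permutation p = 1e-05 for each, the smallest that the 100000 resamples can give). Without old F4 and old M1, which lay farthest from the GLUL median, r was 0.91, and it was 0.95 within the 14 arrays with poly-A control RNA, 0.93 within the 10 old animals, 0.93 within the 6 young adults and 0.94 within the 13 females.

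Of the 13 pairs, 12 joined 7 genes: GLUL, NDRG2, AQP4, EDNRB, FGFR3, ID4 and SOX2. AQP4 and EDNRB had r = 0.88 and rho = 0.82 (permutation p = 2e-05 and 0.00011), NDRG2 and FGFR3 had r = 0.90 and rho = 0.81 (p = 1e-05 and 8e-05, permutation test), NDRG2 and EDNRB had 0.84 and 0.87 (permutation p = 2e-05 for each), and AQP4 and ID4 had 0.82 and 0.84 (permutation p = 0.0001 and 4e-05). Without the 2 animals farthest from the median of the gene named first, the r of these pairs were 0.86, 0.89, 0.93 and 0.76, and the 12 pairs ranged between 0.65 and 0.93. Within the old animals the r of these 4 pairs were 0.92, 0.92, 0.83 and 0.91, and within the 14 arrays 0.91, 0.90, 0.81 and 0.78. Old F1, F2 and F3 were high in most of these genes, with GLUL signals of 17330, 20450 and 15170, NDRG2 signals of 4320, 6664 and 7134 and AQP4 signals of 3533, 4808 and 3478. Old M1, M2 and M3 and old F6 were the lowest old animals in AQP4, with signals of 621.3, 555.2, 734.5 and 697.3. The order was not the same in each gene. Old F4 had the lowest GLUL (951) and NDRG2 (275.1) signals of all animals beside an AQP4 signal of 1189, and old M3 had a GLUL signal of 4271. SLC1A2, SLC1A3 and SOX9 were in none of the 13 pairs. The remaining pair was PPP1R3C with AGT (r = 0.70, rho = 0.79, permutation p = 0.00127 and 0.00014), which had r = 0.56 within the 13 females.

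**Figure D4:**
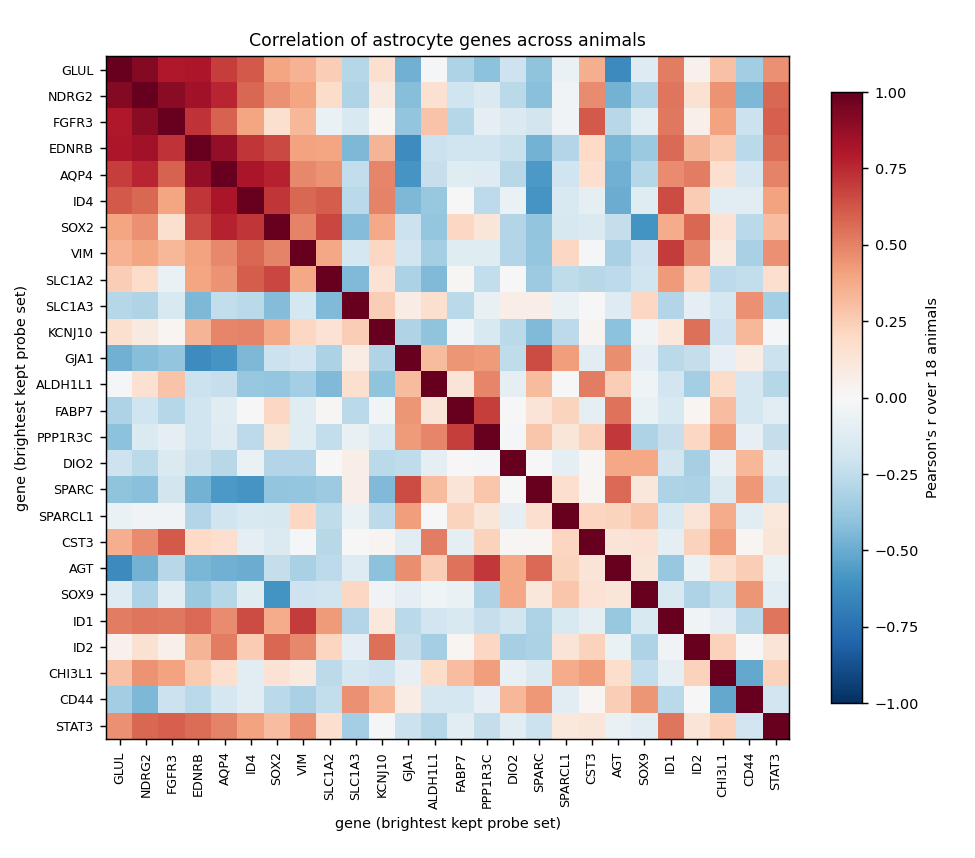
Pearson correlation across the 18 animals between the 26 astrocyte genes with a kept probe set, each by its brightest probe set on log2(signal + 16), red positive and blue negative. The upper left block holds GLUL, NDRG2, FGFR3, EDNRB, AQP4, ID4 and SOX2, placed first after their correlations were seen, and GLUL with NDRG2 reaches 0.92.

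Before adjustment, the GAPDH 3' to 5' ratio moved with several of these genes. With lemur RNA on human probes, this ratio is not a measure of RNA quality alone. The GAPDH 3' to 5' ratio had an r below −0.6 with 7 of the 45 probe sets, which is 15.6%, beside 2.46% of all kept probe sets, and an r above 0.6 with 0 of 45, beside 0.199%. After adjustment over all 14567 kept probe sets none of the 45 passed a permutation p of 0.05 by Pearson's r or by Spearman's rho, while without adjustment 9 and 11 of 45 did, beside 8.33% and 8.31% of all kept. FGFR3 204380_s_at had r = −0.82 and rho = −0.67 (permutation p = 0.00011 and 0.0035, adjusted p = 0.0611 and 0.322). EDNRB had r = −0.69 and rho = −0.75 (permutation p = 0.00132 and 0.00065, adjusted p = 0.171 and 0.233). For NDRG2 214279_s_at r and rho were −0.75 and −0.58, for GLUL 217202_s_at −0.62 and −0.56, and for SLC1A2 1558010_s_at −0.74 and −0.50. Without old F4 and old F6 these r were −0.67 for EDNRB, −0.51 for FGFR3, −0.47 for NDRG2, −0.40 for GLUL and −0.28 for SLC1A2. Within the 6 young adults they were −0.825, −0.50, −0.51, −0.26 and −0.68 in the same order. Within the 14 arrays with poly-A control RNA they were −0.79, −0.87, −0.84, −0.84 and −0.75. After the linear relation with the ratio had been removed from both genes, GLUL with NDRG2 had r = 0.87, AQP4 with EDNRB 0.90, AQP4 with ID4 0.84 and EDNRB with FGFR3 0.38. Other measures of the arrays moved with these genes too. The log2 3' to 5' ratio of beta-actin was −3.25, −3.27 and −2.62 in old F1, F2 and F3, which were high in most of the 7 genes. It was −0.89, −0.76, −1.91 and −1.28 in old M1, M2, M3 and F6, the lowest old animals in AQP4, and −0.40 in old F4. Young adult F4 had −2.65 and was the lowest of its group in AQP4 (667.8), NDRG2 (1336) and GLUL (3689). The array median signal was 30.7, 35.2 and 33.6 in old F1, F2 and F3, and 47.9, 50.5, 49.9 and 42.2 in old M1, M2, M3 and F6. It was 46.5 in old F4 and 48.4 in young adult F4. An r below −0.6 was seen for 7 of the 45 probe sets with the actin ratio, which is 15.6%, beside 8.15% of all kept, and for 10 of 45 with the array median, which is 22.2%, beside 15.8%. After the linear relation with the actin ratio had been removed, the r of the 12 pairs ranged between 0.456 and 0.825, with GLUL and NDRG2 highest. After removal of that with the array median they ranged between 0.477 and 0.906, with NDRG2 and FGFR3 highest. The part of RNA and array quality in the shared variation was not tested further.

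**Figure D5:**
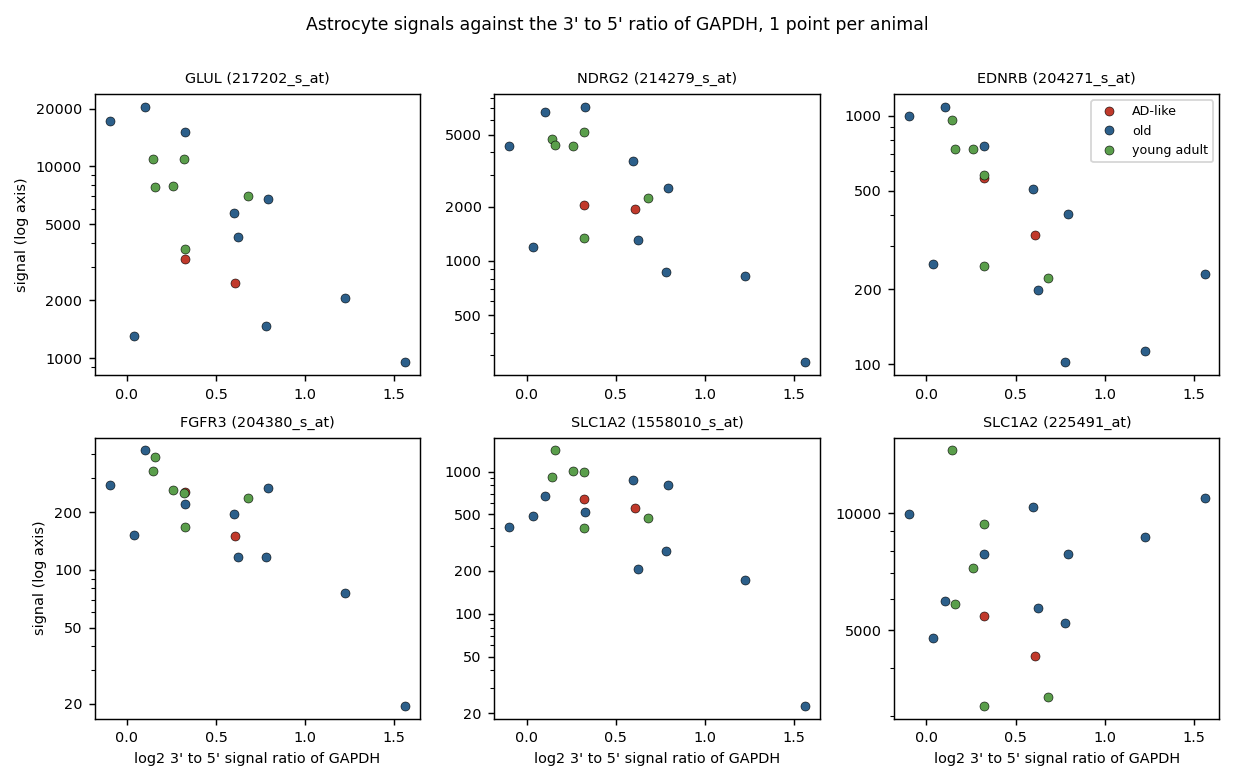
Signals of 6 astrocyte probe sets (vertical, logarithmic) against the log2 3' to 5' signal ratio of GAPDH (horizontal), with 1 point for each of the 18 animals, coloured by group. NDRG2, FGFR3 and the SLC1A2 probe set 1558010_s_at fall toward old F4 at a ratio of 1.56, while SLC1A2 225491_at does not.

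Probe sets of 1 gene often differed in direction. Among the 27 pairs of kept probe sets of the same gene, r across the 18 animals ran between −0.47 and 0.86 with a median of 0.19, and 17 of 27 were above 0. GLUL 217202_s_at with 200648_s_at had r = 0.86 and rho = 0.89 (permutation p = 2e-05 for each), and ID4 209291_at with 209293_x_at had 0.83 and 0.83 (permutation p = 3e-05 and 5e-05). For SLC1A2, 225491_at with 208389_s_at had r = 0.74 and rho = 0.74 (permutation p = 0.0005 and 0.00073), and 0.83 without the 2 animals farthest in 225491_at. The other pair, 1558010_s_at with 1558009_at, had 0.70 and 0.66 (permutation p = 0.00123 and 0.00356), and 0.44 without old F4 and old F6. Between the pairs, 225491_at with 1558010_s_at had r = −0.06 and rho = 0.18 (permutation p = 0.826 and 0.473). These p-values were not adjusted over the 27 pairs. The SLC1A2 probe sets were paired by their correlation in these same animals, so equal signs of their log2 differences are not separate evidence. For AD-like against old animals 208389_s_at and 225491_at gave −1.39 and −0.61, while 1558010_s_at and 1558009_at were above 0. For old against young adult animals 1558010_s_at and 1558009_at gave −1.21 and −0.56, while 208389_s_at and 225491_at were above 0. Of the 12 genes with several kept probe sets, 10 had both signs for AD-like against old animals and 7 for old against young adult animals. The brightest astrocyte probe set, SLC1A2 225491_at, had an r between −0.44 and 0.67 with the other 25 genes.

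Sex was examined because the AD-like animals were all female. A dependence on sex of the difference between old and young adult animals had limma's unadjusted p under 0.05 in 0 of the 45 probe sets. This stood against 4.85% of all kept, and 0 passed adjustment. With 3 old and 2 young adult males, the test could miss large dependences. Among old and young adult animals, the arrays without poly-A control RNA were all of males (old M1, old M2 and young adult M2). Sex and array set can therefore not be fully told apart in these values. The old minus young adult difference was −0.28 in females and −1.86 in males for GLUL 217202_s_at, and −0.26 and 0.94 for SOX9 202936_s_at. Other astrocyte genes came from a list of 31 that were not members, and 22 of them had a kept probe set. Only the brightest kept probe set of each was examined. For old against young adult animals 1 of the 22 was higher (MT2A, a metallothionein, log2 difference 1.03, p = 0.0465), beside 3.49% of all kept, and 2 were lower (CLU and BCAN), beside 2.42%, by limma's unadjusted p under 0.05. In the comparisons of AD-like with old and with young adult animals it was 1 of 22 each (CLU and TTYH1), beside 4.84% and 4.34%, and none passed adjustment. CLU, which encodes the chaperone clusterin, had signals of 179.4 in AD-like F1 and 253.1 in AD-like F2, 42.3 to 130.1 (median 84.0) in old and 62.4 to 419 (median 195.3) in young adult animals. Both AD-like animals lay above all old animals, with a log2 difference of 1.23 (p = 0.0241, adjusted p = 0.964 in limma), and old against young adult animals gave −1.04 (p = 0.00532). BCAN, a brain proteoglycan, gave −0.55 for old against young adult animals (p = 0.0448), and TTYH1, a chloride channel of glia, −0.79 for AD-like against young adult animals (p = 0.0355). Of 35 further genes linked to reactive astrocytes or to the STAT3 and bone morphogenetic protein pathways, 14 had a kept probe set. By the brightest of each, 0 reached an unadjusted p of 0.05 in limma in any of the 3 comparisons.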

How the data were processed

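Temporal cortex RNA of 18 grey mouse lemurs was hybridized to human HG-U133 Plus 2.0 arrays, 1 for each animal. The deposited intensity values were made with GCOS 1.2 by the authors, as linear signals that have the same trimmed mean of 100 on each array. Members were found by symbol in the platform annotation, without probe sets that list several genes. They, the other lists and the rule for named genes (a set of well-known astrocyte genes and every member with an unadjusted p under 0.05) were chosen with earlier results of these data known.

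Probe sets with a third-highest signal of at least 150 were kept, signals were transformed to log2(signal + 16), and 1 model of the 3 groups was fitted in limma 3.58.1 (R 4.3.3), with Benjamini-Hochberg adjustment over all kept probe sets. The 2 AD-like animals were taken to vary as the other groups do. Group differences in the GAPDH ratio used two-sided exact permutation tests and correlations 100000 permutations (Python 3.11.15, scipy 1.17.1). Alternatives covered the offset, filter, normalization, sex, label numbers, array set, GAPDH ratio and leaving out each animal. The pairs of genes, the pairs of probe sets, the relations with array measures and the fit of dim probe sets were chosen after seeing the data. Precision is limited by the number of arrays. The labels do not say how samples were taken, so p-values measure the spread between these animals. No 2 arrays held the same values (highest Spearman correlation 0.890). Sequences were not used here.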

Additional observations from a re-analysis of the deposited data

Results flagged for a closer look

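Of the 90 sets of signals examined (45 probe sets in the old and in the young adult animals), 7 held an animal far from the rest of its group by Dixon's test. Chance alone flags about 1 of 20 sets of normally distributed values. The share over all kept probe sets was not computed, so the count is not a result about the members. VIM had 359.7 in old M3, where the next lowest old animal had 1355. SLC1A2 1558010_s_at had 22.6 in old F4, next to 172.8, and SOX2 214178_s_at had 8.21 in the same animal, next to 77.9. Old F4 also had the highest GAPDH 3' to 5' ratio, 1.56. GLUL 200648_s_at had 297.6 in young adult F4, next to 771.7. DIO2 203700_s_at had 20.2 in old F3, next to 82.1, SOX9 202936_s_at had 11.4 in old F7, next to 66.1, and ID2 had 59.0 in old M3, next to 218.5. All 7 were low signals.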

How the results depend on the processing

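In every alternative 0 astrocyte probe sets passed adjustment, and the counts that follow are at an unadjusted p under 0.05. The share of all kept probe sets also changed between alternatives. A count without that share beside it is therefore not a result about the members. For old against young adult animals, 3 in the main setting, it was 5 after quantile normalization, 1 with females only and 1 with the GAPDH ratio as a covariate, and between 1 and 3 when each animal was left out in turn. For AD-like against old animals, 1 in the main setting, it was 5 with sex as a covariate (11% of all kept), 4 with females only (12%), 3 with the methods' t-test and 3 with the array set as a block. With animals left out it lay between 0, when AD-like F2 was omitted, and 4, when AD-like F1 was. For AD-like against young adult animals, 2 in the main setting, it was 1 with an offset of 50, with no filter, after quantile normalization and with the methods' t-test, 0 within the 14 arrays with poly-A control RNA, and between 0 (without AD-like F2) and 2 with animals left out. FGFR3 204379_s_at changed direction for AD-like against young adult animals, to 0.16 within those 14 arrays and 0.26 without AD-like F2, but was −3.02 without AD-like F1. With the label number as a replicate block the counts were 3, 7 and 7, beside 6.75%, 15.5% and 12.7% of all kept probe sets. The labels do not say that equal numbers mark related animals. The deviations of the 10 pairs with the same label correlated between −0.27 and 0.47 (median 0.22, 6 of 10 over 0.1), and those of the 82 other pairs between −0.40 and 0.47 (median −0.02, 19 of 82 over 0.1). The cause of these shifts was not tested. The planned relation of the members with GFAP was not run, because no GFAP probe set was kept, and the brightest probe set was used in its place.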
